A study of Homo sapiens with 4 samples.

Results

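Zinc enters the cytosol through the ZIP importers (SLC39A genes), leaves it through the ZnT exporters (SLC30A genes) into vesicles or out of the cell, and is buffered by metallothioneins, small cysteine-rich proteins that bind zinc and copper. MTF1 is the zinc-sensing transcription factor that switches on metallothionein genes and SLC30A1 through metal response elements, whereas MTF2, despite its name, is a polycomb-associated chromatin protein. Normal prostate epithelium is known for holding much zinc and secreting citrate, and ZIP1 (SLC39A1) is known there as an uptake transporter. RNA of these genes was compared between 2 prostate cancer cell lines. The genes were chosen by a rule on names alone, set with earlier results of these data known. It takes SLC30A1 to SLC30A10, SLC39A1 to SLC39A14, MT1 followed by a letter, MT2A, MT3, MTF1 and MTF2, with antisense RNAs left out. The rule found 37 of 22985 named genes, made up of 10 exporters, 14 importers, 11 metallothioneins and the 2 MTF genes.

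Total RNA depleted of ribosomal RNA was sequenced from C4-2 and LNCaP cells, with 2 libraries per line. C4-2, labelled as castration-resistant, is a subline of LNCaP that was selected in castrated mice. LNCaP itself is an androgen-sensitive line from a lymph node metastasis, labelled by the submitters as primary cancer. Both were cultured in steroid-depleted serum in RPMI, no other treatment is labelled, and each group is 1 established line. Whether the 2 libraries of each line stem from different cultures is not labelled, so the p-values reflect the variation between these libraries alone, part or all of which could be technical. The stored names contradict the titles: samples titled LNCaP carry the stored name C4-2, and samples titled C4-2 the stored name LNCaP. Titles and cell line labels set the groups here, and with the stored names all directions would be the opposite.

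Sense tags in named genes came to 163.2 and 119.1 M (M, mega) in the libraries labelled C4-2 and to 58.9 and 70.4 M in those labelled LNCaP. These tags were 67.7% and 69.4% of the total behind the deposited RPKM values (tags per kilobase of exon, scaled to a library total) in C4-2, against 31.0% and 35.6% in LNCaP. Levels are therefore given as counts per 1000000 sense tags of named genes after TMM scaling (CPM), which sets each change against that of the typical gene. Taking the RPKM totals as library sizes instead shifted the median log2 fold change of all tested genes by 1.004, and where a member or another gene named here turns direction with it, this is said beside its value. All 9 luminal prostate markers were above 1 CPM in all 4 libraries, with sums of 3403.3 and 3359.4 CPM in C4-2 and 2841.4 and 2863.3 CPM in LNCaP. Basal, fibroblast, endothelial and immune markers summed to at most 4.04 CPM per list in C4-2 and 9.73 CPM in LNCaP, and COL1A2 and CD3E had 0 tags throughout. In bulk RNA, fewer cells with a transcript and less transcript per cell cannot be told apart.

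Most of the zinc genes differed between the lines, as most genes did. Of the 37, 30 had enough tags to be tested, and 23 of these 30 were called: 15 were higher in C4-2 and 8 lower, by edgeR's quasi-likelihood test at a Benjamini-Hochberg adjusted p under 0.05. Over all 15975 genes tested, 79.9% were called, 40.3% higher and 39.7% lower, so the share of 76.7% among the zinc genes is near that background. Their median log2 fold change was 0.11, beside -0.011 over all genes tested. By 2-fold or more, 3 were higher (SLC30A3, SLC39A4 and SLC39A10) and 4 lower (SLC30A2, SLC39A8, MT1F and MT3), where 11.7% of all tested genes were higher and 18.1% lower by that much. For 25 of the 30 the libraries of C4-2 and LNCaP did not overlap, against 89.9% of all genes tested.

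With the RPKM totals as library sizes, 23 of the 30 were called higher and 3 lower, beside 72.4% higher and 11% lower over all genes. The same 15 were higher with both scalings, and SLC30A2, SLC39A8 and MT1F were lower with both. SLC39A9, SLC39A14 and MTF2 were called lower with TMM and higher with the totals, and SLC30A10 and MT3 were lower only with TMM. Shares within a family and ratios between members do not depend on either scaling.

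**Figure D1:**
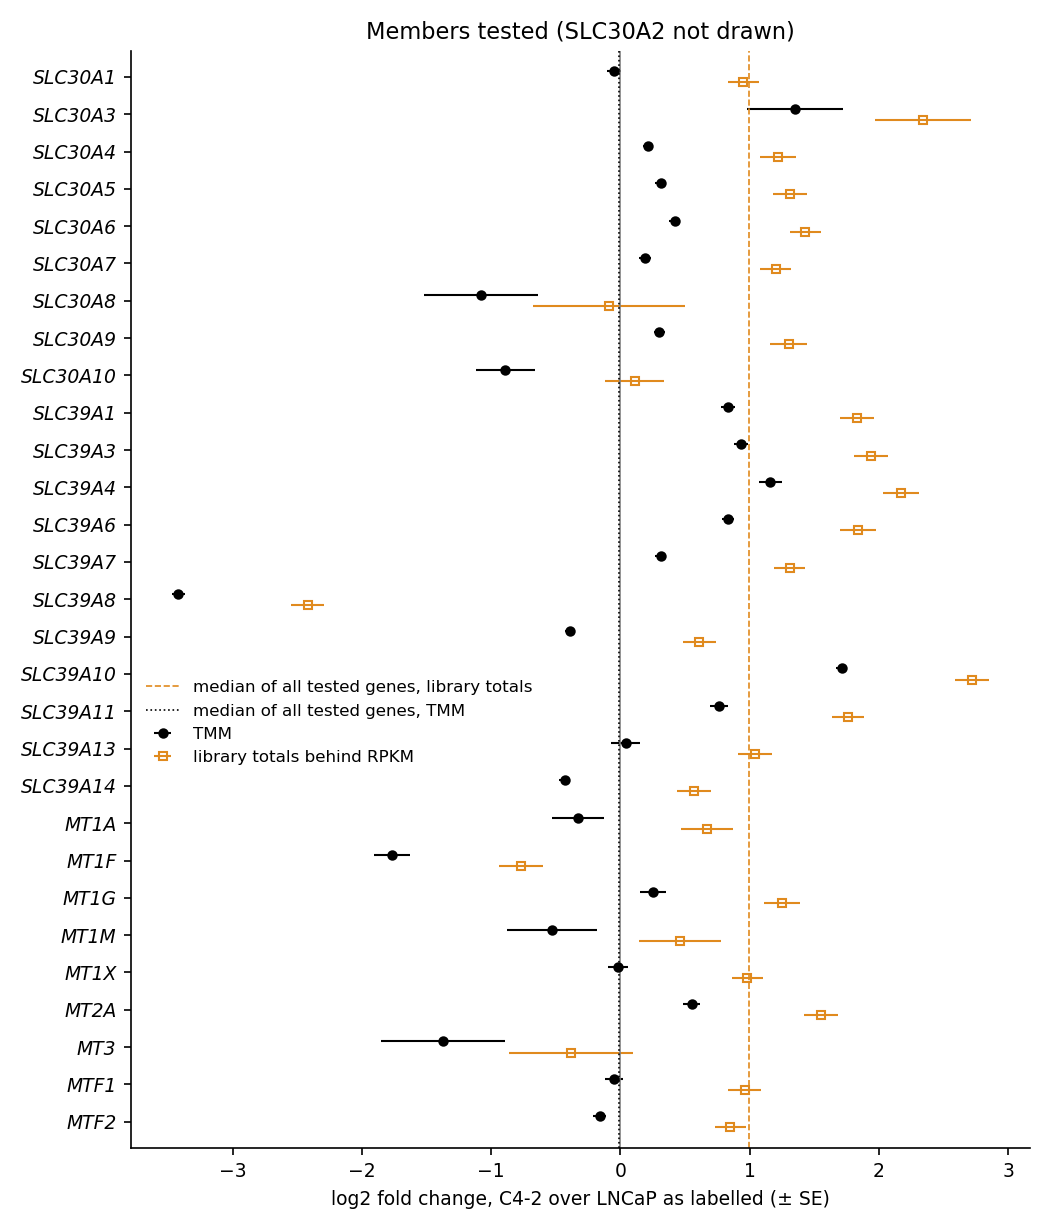
Log2 fold change of each tested member except SLC30A2, C4-2 over LNCaP as labelled, with its standard error. Values are from the TMM fit (black circles) and from the fit scaled to the library totals behind RPKM (orange squares). SLC30A2, with 0 tags in C4-2, was lower in both fits and is not drawn. Vertical lines mark the median over all tested genes, -0.011 with TMM and 0.993 with the totals; SLC39A8 lies far to the left and SLC39A10 to the right in both fits.

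Among the importers, SLC39A8 was the leading ZIP transcript in LNCaP and a minor one in C4-2, where most other ZIPs were higher. Of 11 ZIP genes tested, 7 were called higher, 3 were called lower and 1 was not called. Their median log2 fold change was 0.76 (1.76 with the RPKM totals). Their summed level with TMM was 1049.7 and 1048.9 CPM in C4-2 and 1096.4 and 1086.3 CPM in LNCaP. These sums were close in size with that scaling, but with other leading members. Sums scaled to the RPKM totals were not computed, and the closeness need not hold with them.

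SLC39A8 encodes ZIP8, a plasma membrane importer of zinc, manganese and cadmium, and lies on chromosome 4 (103182821 to 103266655, minus strand, GRCh37). It had 27.4 and 26.5 CPM in the libraries labelled C4-2, against 295.1 and 283.5 CPM in those labelled LNCaP. Both C4-2 libraries were far below both LNCaP libraries, a 10.7-fold difference with a log2 fold change of -3.42 ± 0.05 (SE, edgeR adjusted p = 3.54e-09). With the RPKM totals it was -2.42. All 4 of its transcript models showed it, with log2 ratios between -3.67 and -3.42. Per kilobase of exon, SLC39A8 made up 2.81% and 2.73% of the ZIP transcripts in C4-2 and 29.9% and 28.9% in LNCaP, ranking ninth of the family in C4-2 and at the top in LNCaP. Its close relative SLC39A14 encodes ZIP14, which carries zinc, iron and manganese. SLC39A14 (chromosome 8, 22224762 to 22280249) had 122.2 and 120.2 CPM in C4-2 and 161.6 and 165.8 CPM in LNCaP. That is a log2 fold change of -0.43 ± 0.042 (adjusted p = 2.61e-05), which turned to 0.57 with the RPKM totals. The ratio of SLC39A8 to SLC39A14 per kilobase was 0.332 and 0.326 in C4-2, against 2.7 and 2.53 in LNCaP, so the pair changed its order whatever the scaling.

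SLC39A10 and SLC39A6 encode ZIP10 and ZIP6, plasma membrane importers known to act as a heteromer. SLC39A10 (chromosome 2, 196521852 to 196602426) stood at 115.6 and 120.5 CPM in the libraries labelled C4-2 and at 36.8 and 35.4 CPM in those labelled LNCaP. It was 3.27-fold higher in C4-2 (log2 fold change 1.71 ± 0.046, adjusted p = 3.98e-08), with no overlap between the lines. SLC39A6 (chromosome 18, 33688494 to 33709357), a gene known to respond to oestrogen in breast cancer cells, had 316.2 and 322.3 CPM in C4-2 and 184.0 and 174.9 CPM in LNCaP. Its log2 fold change was 0.83 ± 0.045 (adjusted p = 8.9e-07), and its share of the ZIP transcripts per kilobase was 28.4% and 29.1% in C4-2, against 16.3% and 15.6% in LNCaP, so that it led the family in C4-2. The ratio of SLC39A10 to SLC39A6 was 0.249 and 0.254 in C4-2 and 0.136 and 0.138 in LNCaP, so SLC39A10 was the lesser transcript of the pair in both lines, and nearer to SLC39A6 in C4-2. SLC39A10 over SLC39A8 was 2.51 and 2.71 in C4-2 and 0.0743 and 0.0744 in LNCaP.

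SLC39A1, SLC39A3 and SLC39A4 encode further plasma membrane importers, and all 3 were higher in the libraries labelled C4-2. SLC39A1, the gene for ZIP1, had 78.3 and 72.7 CPM in C4-2 and 41.8 and 43.3 CPM in LNCaP (log2 fold change 0.83 ± 0.054, adjusted p = 2.54e-06). GENCODE on GRCh37 places 2061 of its 3287 exon bases (62.7%) in an unnamed protein-coding gene on the same strand, so its tags could be shared with that gene. An overlap of this kind covered 416 of 4345 exon bases of SLC39A3. Non-coding RNAs on the same strand covered 227 of 3683 exon bases of SLC39A6, 321 of 1727 of MT1X, 120 of 393 of MT1B and all 186 of MT1L. SLC39A3, the gene for ZIP3, had 39.8 and 38.2 CPM in C4-2, against 20.7 and 20.1 CPM in LNCaP (0.93 ± 0.055, adjusted p = 1.51e-06). The second transcript model of SLC39A3 gave a log2 ratio of 0.7. SLC39A4 encodes ZIP4, the intestinal zinc uptake transporter whose loss causes acrodermatitis enteropathica. It had 12.4 and 11.3 CPM in C4-2 and 5.24 and 5.35 CPM in LNCaP, a 2.24-fold difference (1.16 ± 0.086, adjusted p = 5.41e-06). Tags on the strand opposite SLC39A4 were 2.56% and 1.2% of its sense tags in C4-2 and 13.7% and 10.8% in LNCaP. The lines did not overlap for any of these 3 genes, and all 3 were higher with the RPKM totals too.

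Importers of inner membranes were mixed. SLC39A7 encodes ZIP7, which releases zinc from the endoplasmic reticulum, and had 128.2 and 127.9 CPM in C4-2, against 100.1 and 106.3 CPM in LNCaP (log2 fold change 0.31 ± 0.044, adjusted p = 0.000255). C4-2 replicate 2 also held 53159 tags on the strand opposite SLC39A7, against 32 in C4-2 replicate 1 and 44 and 34 in LNCaP, and with both strands added the value was 1.81 (adjusted p = 0.0209). SLC39A11 encodes ZIP11, found in the Golgi and nucleus, and had 27.5 and 29.4 CPM in C4-2 and 16.0 and 17.6 CPM in LNCaP (0.76 ± 0.068, adjusted p = 1.67e-05). SLC39A9 encodes ZIP9, a Golgi and plasma membrane protein also reported as a membrane androgen receptor. Its values of 171.0 and 170.3 CPM in C4-2 lay below the 225.6 and 223.3 CPM of LNCaP (-0.39 ± 0.041, adjusted p = 3.98e-05), a direction that turned to 0.61 with the RPKM totals. SLC39A13, the gene for the vesicular transporter ZIP13, had 11.1 and 9.38 CPM in C4-2 and 9.31 and 10.6 CPM in LNCaP. The lines overlapped for SLC39A13 and its log2 fold change of 0.04 ± 0.11 did not pass (adjusted p = 0.738), though with the RPKM totals it was called higher at 1.04.

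The remaining importers were barely detected. SLC39A2 had 6 tags in the 2 libraries labelled C4-2 together and 6 in those labelled LNCaP, a depth-adjusted ratio of 0.47 with a 95% counting interval of 0.126 to 1.76. SLC39A5 had 11 tags in C4-2 and 9 in LNCaP, a ratio of 0.574 with an interval of 0.216 to 1.57, and SLC39A12 had 2 tags in C4-2 and 0 in LNCaP. Differences in these 3 genes were not detectable at this depth.

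**Figure D2:**
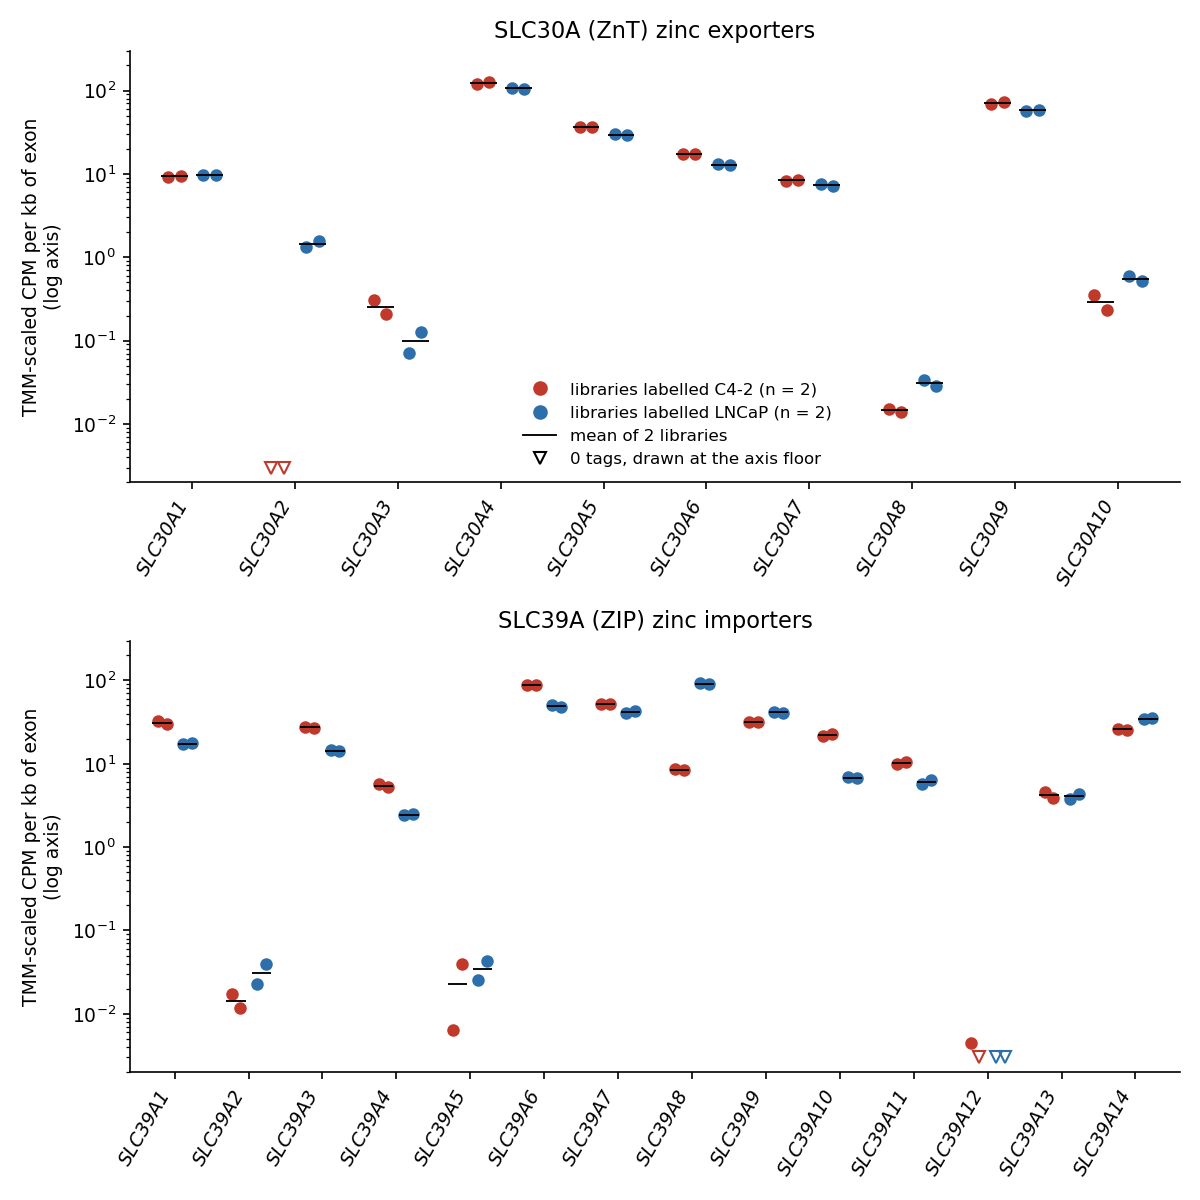
TMM-scaled CPM per kilobase of exon (log axis) of each SLC30A gene (upper panel) and SLC39A gene (lower panel), with a point per library, C4-2 in red and LNCaP in blue, and a bar at the mean of 2 libraries. Open triangles mark libraries with 0 tags; SLC39A8 is the ZIP with the widest gap, 8.5 in C4-2 against 91.3 in LNCaP, and SLC30A2 has tags in LNCaP only.

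The exporters had nearly the same make-up in both lines, apart from SLC30A2, which was not detected in C4-2. All 10 were tested, of which 6 were called higher, 2 were called lower and 2 were not called. Their median log2 fold change was 0.2 (1.21 with the RPKM totals). Summed levels were 1066.6 and 1101.9 CPM in C4-2 and 925.2 and 904.4 CPM in LNCaP. SLC30A4, SLC30A9, SLC30A5, SLC30A6 and SLC30A1 held the first 5 ranks per kilobase, in that order, in both lines.

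SLC30A2 encodes ZnT2, a vesicular exporter known for loading zinc into milk, and lies on chromosome 1 (26364514 to 26372604, minus strand). C4-2 gave 0 tags in either library, against 198 and 271 tags, or 3.3 and 3.83 CPM, in those labelled LNCaP. With a floor of 3 tags over the C4-2 libraries it was at least 332.9-fold lower there, and at least 166.5-fold lower with the RPKM totals (edgeR adjusted p = 6.26e-07). Both of its transcript models had 0 tags in C4-2.

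SLC30A4 encodes ZnT4, a vesicular exporter of secretory cells, and was the most abundant exporter per kilobase. It had 519.7 and 540.3 CPM in C4-2 and 464.9 and 449.8 CPM in LNCaP (log2 fold change 0.21 ± 0.039, adjusted p = 0.00124). Its share of the exporter transcripts was 46.3% and 46.5% in C4-2 and 47.6% and 46.9% in LNCaP. LNCaP replicate 2 held 2794 tags on the strand opposite SLC30A4, beside 303 and 170 in the C4-2 libraries and 113 in LNCaP replicate 1, and with both strands added its log2 fold change was 0.19 (adjusted p = 0.00395). SLC30A9, whose product is a mitochondrial zinc exporter, came next with 225.6 and 236.3 CPM in C4-2 and 186.6 and 189.7 CPM in LNCaP (0.3 ± 0.044, adjusted p = 0.000376). Both genes were higher without overlap between the lines, by 1.16-fold for SLC30A4 and 1.23-fold for SLC30A9 with TMM.

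SLC30A5, SLC30A6 and SLC30A7 serve the early secretory pathway, where ZnT5 and ZnT6 form a heterodimer and ZnT7 a homodimer that load zinc into enzymes. SLC30A5 had 146.9 and 148.3 CPM in C4-2 and 121.2 and 117.5 CPM in LNCaP (log2 fold change 0.31 ± 0.041, adjusted p = 0.000201). These values are of the full-length model of SLC30A5, and the 2 models that end early gave log2 ratios of 0.02 and -0.01. SLC30A6 had 85.5 and 86.9 CPM in C4-2 and 65.6 and 63.0 CPM in LNCaP (0.42 ± 0.043, adjusted p = 3.39e-05). The ratio of SLC30A5 to SLC30A6 per kilobase was 2.1 and 2.09 in C4-2 and 2.26 and 2.28 in LNCaP. SLC30A7 had 68.4 and 69.9 CPM in C4-2 and 62.1 and 59.2 CPM in LNCaP (0.19 ± 0.046, adjusted p = 0.00553). Its call was lost with a stricter filter on low counts (0.1, adjusted p = 0.0705) and without C4-2 replicate 2 (0.18, adjusted p = 0.0595).

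SLC30A1 encodes ZnT1, the plasma membrane exporter and a known target of MTF1. It stood at 18.7 and 18.9 CPM in C4-2 and 19.4 and 19.6 CPM in LNCaP. The libraries did not overlap, but the log2 fold change of -0.05 ± 0.056 did not pass (adjusted p = 0.41), and the RPKM totals gave 0.95, called higher. A stricter filter gave -0.14 with an adjusted p of 0.0404.

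SLC30A3, SLC30A8 and SLC30A10 were all under 2 CPM. SLC30A3 encodes ZnT3 of synaptic vesicles and had 0.635 and 0.441 CPM in C4-2 against 0.15 and 0.268 CPM in LNCaP, from 102 and 52 tags in C4-2 and 9 and 19 tags in LNCaP. Its log2 fold change was 1.35 ± 0.37 (adjusted p = 0.0103), and without C4-2 replicate 1 it was 1.06 with an adjusted p of 0.0652. SLC30A10, whose product exports manganese, averaged 0.839 ± 0.239 CPM in C4-2 and 1.58 ± 0.14 CPM in LNCaP (SD, n = 2 each). It was called lower (-0.89 ± 0.23, adjusted p = 0.00743), but stood at 0.11 and was not called with the RPKM totals. SLC30A8, the zinc transporter gene of insulin granules, had 13 and 9 tags in C4-2 and 11 and 11 in LNCaP (-1.08 ± 0.44, adjusted p = 0.0526). It was called with summed transcripts (-1.5, adjusted p = 0.0412) and with both strands added (-1.29, adjusted p = 0.00627). On the opposite strand of SLC30A8 lay as many tags or more, 13 and 9 in C4-2 and 14 and 16 in LNCaP.

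**Figure D3:**
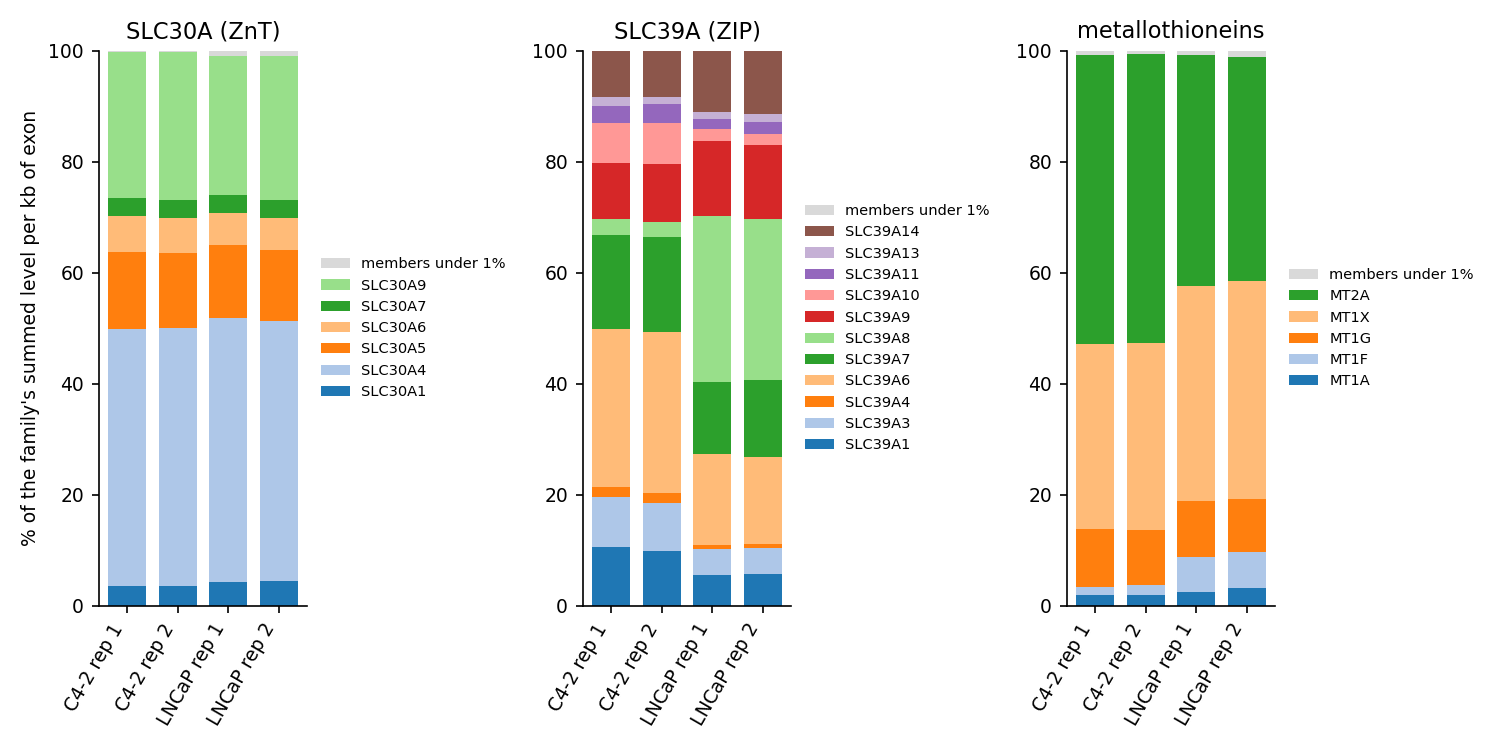
Share of each family's summed level per kilobase of exon held by each member, in percent, for the SLC30A, SLC39A and metallothionein genes, with a bar for each library, C4-2 to the left of LNCaP. Exporter shares hardly differ between the lines, whereas SLC39A8 holds 2.81% and 2.73% of the ZIP bar in C4-2 and 29.9% and 28.9% in LNCaP.

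The metallothionein genes lie side by side on chromosome 16 and have similar coding sequences, so the letters that separate them are shown first. The coding sequences with stop codon of the 3 most abundant members and of MT1F, the one above 1 CPM with the largest fold difference in share, are those of GENCODE on GRCh37; capitals mark bases that differ from MT2A or have no partner in it.

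MT2A: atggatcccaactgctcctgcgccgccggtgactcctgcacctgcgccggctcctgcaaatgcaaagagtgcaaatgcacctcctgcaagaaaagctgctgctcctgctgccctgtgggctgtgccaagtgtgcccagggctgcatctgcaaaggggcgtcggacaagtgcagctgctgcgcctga
MT1X: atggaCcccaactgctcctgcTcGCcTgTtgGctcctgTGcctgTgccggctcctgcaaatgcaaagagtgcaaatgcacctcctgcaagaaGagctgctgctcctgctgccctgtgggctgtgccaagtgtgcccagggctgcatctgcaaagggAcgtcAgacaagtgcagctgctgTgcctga
MT1G: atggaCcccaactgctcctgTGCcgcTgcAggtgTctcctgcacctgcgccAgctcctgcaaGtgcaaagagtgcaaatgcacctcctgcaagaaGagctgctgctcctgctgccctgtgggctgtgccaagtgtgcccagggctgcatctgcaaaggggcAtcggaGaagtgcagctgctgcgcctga
MT1F: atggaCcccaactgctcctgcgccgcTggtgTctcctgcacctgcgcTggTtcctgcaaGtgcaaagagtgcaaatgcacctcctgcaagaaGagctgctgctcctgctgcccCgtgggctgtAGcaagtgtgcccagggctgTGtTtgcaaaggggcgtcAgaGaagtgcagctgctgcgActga

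MT1X differed from MT2A at 14 of 186 aligned positions (92.5% identity), MT1G at 12 of 189 (93.7%) and MT1F at 16 of 186 (91.4%), with MT3 the most distant at 73.4%. Over whole transcripts, windows of 36 bases shared exactly with another metallothionein transcript made up 12.3% for MT2A, 20.6% for MT1X, 27.2% for MT1G and 11.0% for MT1F. How the authors treated tags that match several places is not given in the sources used here, so levels within the cluster are uncertain. Exact matches between these transcripts need not give the full extent, as inexact matches and the rest of the genome were not searched.

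Of 7 metallothioneins tested, 2 were called higher, 2 were called lower and 3 were not called. Their median log2 fold change was -0.33 (0.67 with the RPKM totals, where 4 were called higher and 1 lower). Without LNCaP replicate 1, 1 was called higher and 4 lower, and without C4-2 replicate 1, 1 higher and 1 lower. Without LNCaP replicate 2, 2 were called higher and 1 lower. Summed levels were 92.83 and 84.68 CPM in C4-2 and 72.53 and 82.19 CPM in LNCaP. MT2A, the main metallothionein of most tissues (chromosome 16, 56642478 to 56643409, plus strand), had 49.3 and 45.0 CPM in C4-2 and 30.6 and 33.6 CPM in LNCaP. It was 1.47-fold higher (0.55 ± 0.069, adjusted p = 0.000127), without overlap. MT1X (56716382 to 56718108, plus strand) had 30.4 and 28.0 CPM in C4-2 and 27.6 and 31.7 CPM in LNCaP, and the lines overlapped. Its log2 fold change of -0.02 ± 0.078 did not pass (adjusted p = 0.792), and the RPKM totals gave 0.98, called higher. MT2A over MT1X per kilobase was 1.57 and 1.55 in C4-2 and 1.07 and 1.02 in LNCaP. The ratio of these genes, 92.5% identical in coding sequence, thus differed between the lines.

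MT1F (56691855 to 56693215, plus strand) went the other way. It had 1.43 and 1.73 CPM in C4-2 and 4.98 and 5.72 CPM in LNCaP, from 229 and 204 tags in C4-2 and 299 and 405 tags in LNCaP. That is 3.42-fold lower (-1.77 ± 0.14, adjusted p = 9.01e-06), and it was lower with the RPKM totals too (-0.77). MT1F made up 1.43% and 1.91% of metallothionein transcripts per kilobase in C4-2, against 6.41% and 6.51% in LNCaP.

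MT1G (56700653 to 56701977, minus strand) averaged 8.62 ± 0.862 CPM in C4-2 and 7.27 ± 0.391 CPM in LNCaP (SD, n = 2 each). Its log2 fold change of 0.25 ± 0.099 was just called (adjusted p = 0.0481), and the call was lost without C4-2 replicate 1 (0.15, adjusted p = 0.329) and without LNCaP replicate 1 (0.2, adjusted p = 0.0582). It was also lost in 5 other settings, with adjusted p-values of 0.0526 to 0.177. MT3, a brain metallothionein, had 0.0871 and 0.153 CPM in C4-2 against 0.2 and 0.396 CPM in LNCaP, from 14 and 18 tags in C4-2 and 12 and 28 tags in LNCaP. It was called lower (-1.37 ± 0.48, adjusted p = 0.0281), but DESeq2 gave an adjusted p of 0.117, and the RPKM totals -0.38 with 0.453. Without LNCaP replicate 2 the value for MT3 was -0.77 (adjusted p = 0.328), and without C4-2 replicate 1 it was -0.97 (adjusted p = 0.152).

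MT1A averaged 1.64 ± 0.192 CPM in C4-2 and 2.05 ± 0.551 CPM in LNCaP (log2 fold change -0.33 ± 0.2, adjusted p = 0.171). MT1M averaged 0.402 ± 0.136 CPM in C4-2 and 0.584 ± 0.213 CPM in LNCaP (-0.53 ± 0.35, adjusted p = 0.199). Neither passed with TMM, but the value of MT1A without LNCaP replicate 1 was -0.56 (adjusted p = 0.00353) and that of MT1M -0.84 (adjusted p = 0.027). With the RPKM totals MT1A turned to 0.67 and was called higher, and MT1M turned to 0.46. Among the rest, MT1E had 11 tags in C4-2 and 0 in LNCaP, at least 1.72-fold higher, 10 of the 11 in C4-2 replicate 1. MT1H had 3 tags in C4-2 and 0 in LNCaP. MT1L had 6 tags in C4-2 and 2 in LNCaP (ratio 1.41 with a 95% counting interval of 0.252 to 14.3), on exons that another annotated RNA covers in full, and MT1B had 0 tags in all 4 libraries.

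**Figure D4:**
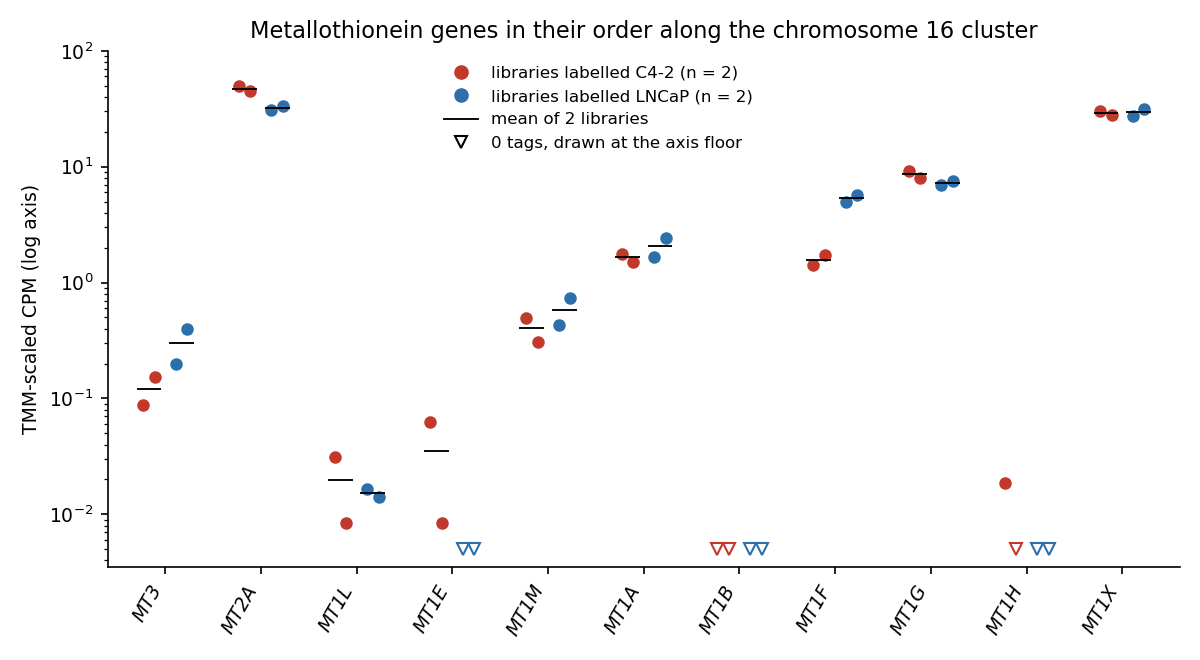
TMM-scaled CPM (log axis) of the 11 metallothionein genes in their order along chromosome 16, with a point per library, C4-2 in red and LNCaP in blue, bars at the mean of 2 libraries and open triangles for 0 tags. MT2A is higher in C4-2, MT1X overlaps, and MT1F, between MT1B and MT1G, is lower, at 1.43 and 1.73 in C4-2 against 4.98 and 5.72 in LNCaP.

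MTF1 itself did not pass. It had 16.0 and 15.0 CPM in C4-2 and 16.6 and 15.4 CPM in LNCaP (log2 fold change -0.05 ± 0.07, adjusted p = 0.557), and with the RPKM totals it turned to 0.96. Tags on the opposite strand of MTF1 came to 4.95% and 6.68% of sense tags in C4-2 and 8.74% and 10.1% in LNCaP. MTF2 had 33.9 and 33.8 CPM in C4-2 and 38.0 and 37.4 CPM in LNCaP. Its small difference was called with TMM (-0.16 ± 0.05, adjusted p = 0.0202) and turned to 0.85 with the RPKM totals. The call of MTF2 was lost without C4-2 replicate 1 (-0.15, adjusted p = 0.145) and without C4-2 replicate 2 (-0.15, adjusted p = 0.154).

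The core of the metal response element that MTF1 binds was searched as TGCACNC and TGCGCNC on both strands, where 2 matches may overlap. The promoter windows of its known targets MT2A, MT1X and SLC30A1, from 250 bases before to 50 bases after the start in RefSeq's GRCh38.p14 table, are shown because MT2A was called higher with TMM and MT1X and SLC30A1 were not. Capitals mark the matches, read 5′ to 3′ on the strand of the gene. MT2A lies at chr16:56608334-56608633 (plus), MT1X at chr16:56682220-56682519 (plus) and SLC30A1 at chr1:211579112-211579411 (minus).

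MT2A: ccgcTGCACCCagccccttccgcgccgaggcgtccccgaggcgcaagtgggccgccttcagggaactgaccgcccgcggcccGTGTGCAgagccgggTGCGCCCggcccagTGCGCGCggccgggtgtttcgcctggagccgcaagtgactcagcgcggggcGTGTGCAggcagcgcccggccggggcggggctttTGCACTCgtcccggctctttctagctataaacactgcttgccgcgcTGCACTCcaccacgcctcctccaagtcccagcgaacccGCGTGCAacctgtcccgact
MT1X: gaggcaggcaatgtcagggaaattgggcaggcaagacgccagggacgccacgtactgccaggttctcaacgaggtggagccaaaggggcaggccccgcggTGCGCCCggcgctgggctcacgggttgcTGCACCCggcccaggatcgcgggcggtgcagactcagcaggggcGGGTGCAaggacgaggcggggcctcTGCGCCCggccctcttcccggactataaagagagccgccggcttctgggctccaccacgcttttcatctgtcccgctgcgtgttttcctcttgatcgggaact
SLC30A1: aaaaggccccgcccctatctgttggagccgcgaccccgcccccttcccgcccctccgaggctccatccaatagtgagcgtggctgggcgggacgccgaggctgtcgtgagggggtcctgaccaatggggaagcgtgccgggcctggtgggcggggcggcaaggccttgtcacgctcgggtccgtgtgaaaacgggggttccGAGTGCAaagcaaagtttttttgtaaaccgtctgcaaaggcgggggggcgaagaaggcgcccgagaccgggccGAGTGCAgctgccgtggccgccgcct

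MT2A held 8 matches, MT1X 4 and SLC30A1 2. Of 35116 promoter windows of this length in the table, 29.55% held at least 1 match, 2.304% at least 3 and 0.074% at least 6. MT1H also held 8 and MT1B 3, though their transcripts had 3 and 0 tags in C4-2 and none in LNCaP. Of the metallothioneins, only MT2A, MT1X, MT1H and MT1B had a window in the table. The others, MT1F and MT1G among them, could not be searched. SLC30A2 held 3, and the 3 windows of SLC39A8 held 0, 0 and 1. A match is a string of letters and no measure of binding.

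Other genes of metal handling, in 4 lists, were mixed as well. Of 33 such genes 31 were tested, 16 were called higher and 9 lower, and 6 did not pass, beside 40.3% higher and 39.7% lower over all genes. With the RPKM totals 24 were called higher and 6 lower. Among other zinc genes, 3 were higher, 3 lower and 1 did not pass. AZGP1, which encodes zinc-alpha-2-glycoprotein, a prostate secretory protein, had 14.6 and 13.9 CPM in C4-2 and 127.1 and 126.9 CPM in LNCaP (-3.15 ± 0.049, adjusted p = 4.2e-09). TMEM163, a zinc exporter of synaptic vesicles, had a log2 fold change of 2.02 ± 0.24, from levels of 2.23 and 1.8 CPM in C4-2 and 0.599 and 0.41 CPM in LNCaP (adjusted p = 8.15e-05). TMC8, a partner of ZnT1, had -2.13 ± 0.22 (adjusted p = 4.15e-05). These 3 kept their direction with the RPKM totals.

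For copper, 3 genes were called higher, 2 lower and 3 did not pass, whereas the RPKM totals gave 7 higher and 0 lower. The mitochondrial copper chaperone gene COX17 had a log2 fold change of -0.93 ± 0.039 (edgeR adjusted p = 2.55e-07) and SLC31A2, a copper transporter gene, of -0.43 ± 0.094 (adjusted p = 0.00292). With the RPKM totals COX17 turned to 0.07 and SLC31A2 to 0.57. CCS, which loads copper into superoxide dismutase, had 0.44 and the copper exporter gene ATP7A 0.28.

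For iron, 5 were called higher, 2 lower and 1 did not pass. TFRC, the transferrin receptor gene, had 1092.4 and 1103.7 CPM in C4-2 and 701.8 and 698.7 CPM in LNCaP (0.65 ± 0.029, adjusted p = 3.63e-07). The ferritin heavy chain gene FTH1 and ACO1, which encodes an iron regulatory protein, were higher by log2 fold changes of 0.8 and 0.82. SLC40A1, the gene for ferroportin, the iron exporter, was lower by 2-fold or more, with 1.61 and 1.59 CPM in C4-2 and 10.3 and 9.78 CPM in LNCaP (-2.65 ± 0.1, adjusted p = 1.65e-07). HFE, the other iron gene called lower, was named after its values were seen. It had 0.373 and 0.593 CPM in C4-2 and 6.06 and 6.84 CPM in LNCaP. The log2 fold change of HFE was -3.77 ± 0.2 (adjusted p = 8.12e-07).

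Of 8 genes of metal and oxidant stress, 5 were called higher, 2 lower and 1 did not pass. The lower ones were GCLC and HMOX1, the heme oxygenase gene, named after its values were seen. HMOX1, at -0.42 with TMM, turned to 0.58 and was called higher with the RPKM totals. SRXN1, TXNRD1 and NQO1, targets of the stress factor NRF2, had log2 fold changes of 1.13, 0.74 and 0.6. GCLC, which encodes the catalytic subunit for glutathione synthesis, another NRF2 target, had -1.31 ± 0.063 (adjusted p = 4.94e-07), with 24.1 and 25.1 CPM in C4-2 and 64.0 and 58.2 CPM in LNCaP. Its direction held with the RPKM totals (-0.3).

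**Figure D5:**
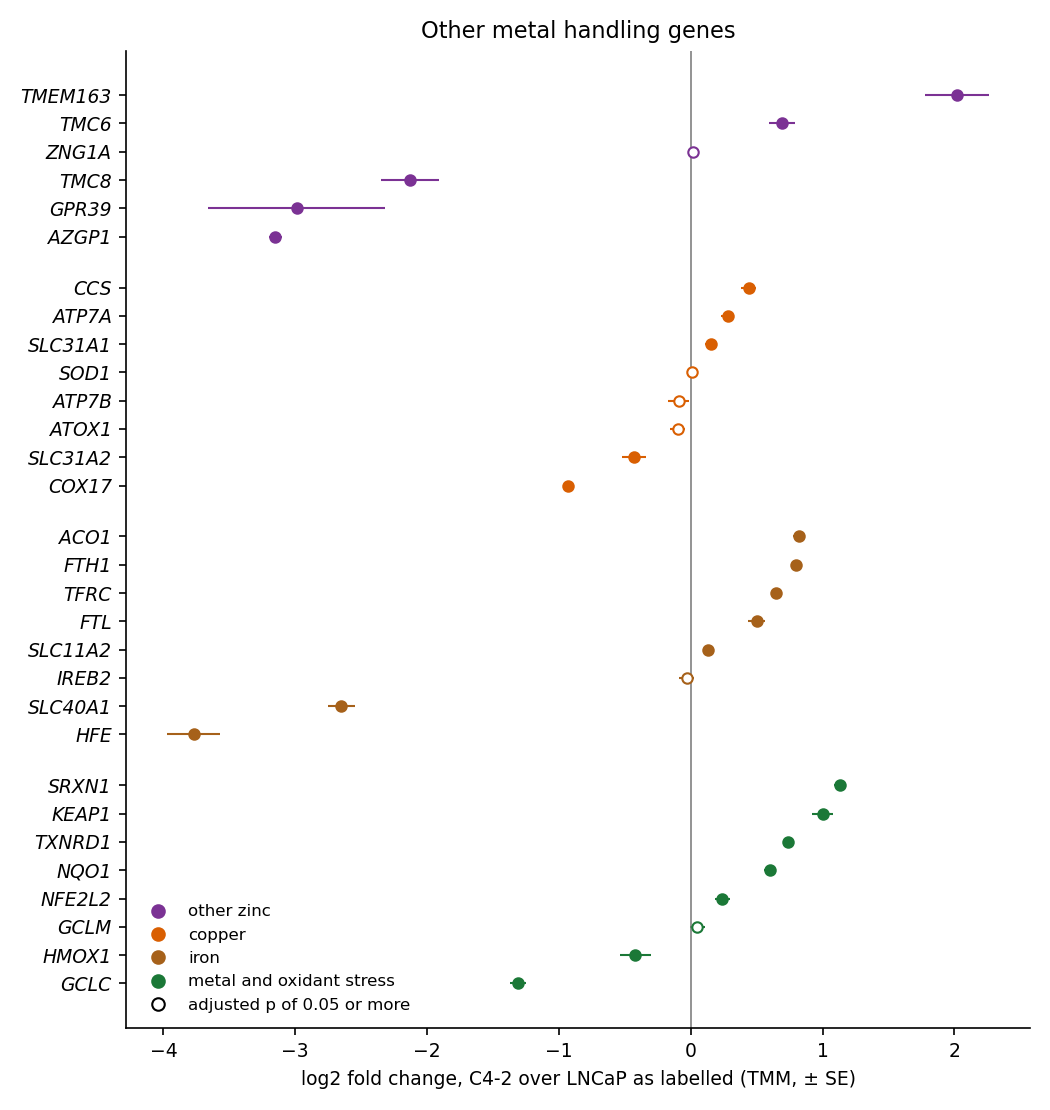
Log2 fold change (TMM, C4-2 over LNCaP as labelled) with its standard error for 30 of the 31 tested genes of the lists of other zinc genes, copper, iron, and metal and oxidant stress. Filled points passed an adjusted p of 0.05 and open points did not; each list holds genes on both sides of 0.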

How the data were processed

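RNA was measured in 2 libraries labelled C4-2 and 2 labelled LNCaP. Alignment used Bowtie and TopHat2 2.0.6 on hg19 (GRCh37), per the submitters' processing notes. The authors deposited tag counts and RPKM values for each strand of 41351 RefSeq entries, per the file headers. Not given in the sources used here are the counting tool, the version of the transcript models and the treatment of tags that match several places. The library kit is not stated to keep strand, and 1.18% to 1.8% of tags lay opposite to the transcript.

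Gene symbols came from RefSeq's GRCh38.p14 table, used for names only, which matched 38974 of 40304 accessions. Each gene was represented by its transcript with the most tags, as a mean share over the 4 libraries. Transcripts without a symbol held 2.06% to 2.15% of sense tags and stayed out. Sense counts were tested with edgeR 4.0.16 (quasi-likelihood test, filter on low counts, TMM, cell line as the only term) in R 4.3.3, and p-values were adjusted over 15975 genes by Benjamini-Hochberg. The F statistic of each fold change gave its standard error. The scripts were tested on simulated data. The RPKM values served to recover exon lengths and each library's total, 241.1 and 171.5 M tags (M, mega) in C4-2 and 189.9 and 197.6 M in LNCaP. Intervals and floors (3 tags over a group) cover counting error only, at 95%. Replicates were not copies: chi-square divided by its degrees of freedom was 13.05 in C4-2 and 24.42 in LNCaP, above sampling noise.

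Members and lists were chosen with earlier results of these data known. Members are given per library where tested with a mean of at least 10 CPM, or where called with a log2 fold change of at least 1 in size; some others are given too. Up to 4 called genes of each other list, by smallest adjusted p, are named, and 1 gene that meets this rule is not reported here. Alternatives were DESeq2 1.42.0, its size factors in edgeR, RPKM totals, no filter, a stricter filter (mean of at least 1 CPM), summed or longest transcripts, both strands, a replicate block, leaving out each library, and leaving out abundant non-coding RNAs. Coordinates of genes are those of the deposited data, counted from 1.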

Additional observations from a re-analysis of the deposited data

Results flagged for a closer look

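The SLC39A7 transcript used here carried 53159 tags on the strand opposite to the gene in C4-2 replicate 2, a strand left out of the comparison of sense tags. The same strand held 32 tags in C4-2 replicate 1, and 44 and 34 in the LNCaP libraries, and the second SLC39A7 transcript, of the same span with 2151 in place of 2454 exon bases, held 28 and 33 in C4-2 and 41 and 33 in LNCaP. Over all 15975 tested genes, 57 (0.357%) had at least 1000 opposite tags in 1 library at 10 times the next library or more after scaling to depth, SLC30A4 and SLC39A7 among them. Sense tags of SLC39A7 came to 127.9 CPM in C4-2 replicate 2, beside 128.2 CPM in C4-2 replicate 1.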

How the results depend on the processing

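With the RPKM totals as library sizes, 11573 genes were called higher and 1753 lower, the ZnT and ZIP genes called lower numbered 1 each, metallothioneins 4 higher and 1 lower, and MTF genes 2 higher and 0 lower. Among members and named genes, log2 fold changes that turned there were SLC30A1 (0.95), SLC30A10 (0.11), SLC39A9 (0.61), SLC39A14 (0.57), MT1A (0.67), MT1M (0.46), MT1X (0.98), MTF1 (0.96), MTF2 (0.85), COX17 (0.07), SLC31A2 (0.57) and HMOX1 (0.58). This follows from the shift of 1.004 in the median. Metallothioneins called higher numbered 1 with DESeq2, a stricter filter, summed transcripts, the replicate block or without abundant non-coding RNAs, and those called lower 1 with DESeq2 or a stricter filter. MTF genes called lower numbered 0 without a filter and with the replicate block; the cause was not tested. SLC39A7 with both strands added was 1.81 in place of 0.31. Signs near 0 also turned for SLC30A1 (0.01, both strands), MT1X (0.02 without a filter, 0.01 with both strands) and SLC39A13 (-0.05, stricter filter). Leaving out 1 library gave 1 to 2 metallothioneins called higher, 1 to 4 lower, and 0 to 1 MTF genes lower.

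Without 1 library, SLC39A13 ranged from -0.08 to 0.16, MT1X from -0.11 to 0.08 and MTF1 from -0.09 to 0.01, none of them called. The replicate numbers did not pair the samples (correlation of deviations of same-numbered libraries -0.032 over 15975 genes); the replicate block gave 6264 genes higher and 6135 lower. Over the tested members, alternatives kept direction and call in 373 cases, lost the call with the same direction in 18, gained it with the same direction in 6, and turned the direction in 19. Depth limits SLC39A2, SLC39A5, SLC39A12, MT1B, MT1E, MT1H and MT1L, which had at most 11 tags per line.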
